A study of Rattus norvegicus with 8 samples.

Results

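Lef1 positive T cells were followed across 8 Chromium single cell libraries of liver immune cells. Lef1 is a transcription factor that binds DNA next to the Wnt effector beta-catenin. Together with its relative Tcf7 it is known from developing, naive and memory T cells, and it is lost as T cells become effector cells. The liver mostly holds T cells that have met antigen, along with many NK cells, and T cells that pass through with the blood carry receptors such as S1pr1. A cell was a member when it had at least 500 UMIs (unique molecular identifiers, each a counted transcript), under 20% mitochondrial UMIs, at least 2 UMIs of the T cell receptor chains Cd3d, Cd3e and Cd3g together, at least 1 Lef1 UMI, and no UMI of Ncr1 (NK cells), Cd79a (B cells) or Siglech (plasmacytoid dendritic cells). Of 32170 cells, 1054 were members, 2450 passed the same T cell gate without a Lef1 UMI (Lef1 negative T cells), and 28666 lay outside the gate. The members were chosen by their measured Lef1 and Cd3 UMIs, so the levels of these genes are given as a description with no test.

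The cells came from 4 male Han Wistar rats. NC1 and NC2 had been fed a choline-sufficient diet (CSAA) and PC1 and PC2 a choline-deficient diet (CDAA), and the livers were dissociated and the immune cells enriched from the interphase of a density gradient. From each animal, fresh cells went into 1 library and DMSO cryopreserved cells, stored for 3 weeks, into another at a later date, so that preservation and processing date cannot be told apart. Each diet rests on 2 animals. The fresh libraries held 199, 261, 63 and 25 members in NC1, NC2, PC1 and PC2, and the preserved libraries 159, 254, 55 and 38. Library totals ran from 18338700 to 26471843 UMIs, the members together held 4912589 UMIs, and the median member had 3304 to 5109 UMIs, depending on the library. No member barcode was found in more than 1 library, while 591 barcodes were shared between pairs of libraries over all cells.

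The label of naive-like cells could not be carried over to these members, because several transcripts that define naive T cells were hardly counted. The reason for the low counts was not tested. Over all 1054 members there were 6 UMIs of Ccr7, the lymph node homing receptor, 16 of Tcf7, 3 of Klf2, a regulator of T cell trafficking, 0 of Ltb and 39 of Il7r, the interleukin 7 receptor. In all 32170 cells there were 46 UMIs of Ccr7 and 144 of Tcf7. S1pr1 and Satb1 were counted and are described below. The members are therefore called Lef1 positive T cells.

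The T cell label held for most members but less well near the lower edge of the gate. Among cells with none of the 3 exclusion genes, the share with a Lef1 UMI was 2.96% at 0 Cd3 UMIs, 5.16% at 1, 6.72% at 2, 19.0% at 3 to 4, 49.1% at 5 to 9 and 49.5% at 10 or more. Myeloid cells without Cd3 UMIs, which should lack Lef1, carried a Lef1 UMI in 1.41% to 7.34% of cells per library, at medians of 2720 to 3496.5 UMIs. The share at 2 Cd3 UMIs was 1.43% to 11.2% per library. It was above the myeloid share of the same library in 7 of 8 libraries and, as means of the 2 libraries, in 3 of 4 animals, with a difference of 1.79 ± 1.62 percentage points (SD, n = 4 animals; two-sided exact permutation test, p = 0.25, where 4 animals cannot give less than 0.125). With 4 animals this test could not tell the share at 2 Cd3 UMIs apart from the background at a p under 0.05. It does not show that the shares are alike. Over the same steps, the share of cells with 5 or more UMIs of the macrophage genes Csf1r and Cd68 was 30.8%, 36.9%, 41.0%, 34.7%, 5.84% and 5.12%.

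**Figure D1:**
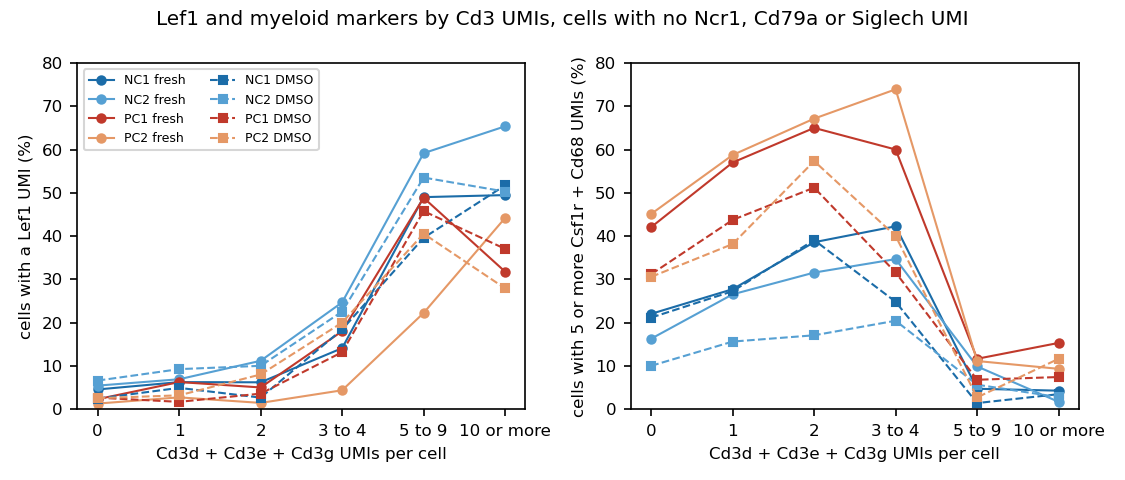
The share of cells with a Lef1 UMI (left) and with 5 or more Csf1r and Cd68 UMIs (right), in percent of cells, is plotted against the Cd3 UMIs per cell for cells with no Ncr1, Cd79a or Siglech UMI, with 1 line per library. From 3 to 4 Cd3 UMIs to 5 to 9, the Lef1 share rose and the share of cells with myeloid transcripts fell in every library.

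This step fell unevenly on the 2 T cell populations. Of the members, 73 had 2 Cd3 UMIs, 132 had 3 to 4 and 849 had 5 or more. Of the Lef1 negative T cells, 1013 had 2 Cd3 UMIs, 563 had 3 to 4 and 874 had 5 or more. The comparisons by population, preservation and diet were therefore repeated among T cells with at least 5 Cd3 UMIs, a minimum that was chosen after these values were seen. Just outside the gate, 151 cells had a Lef1 UMI and 1 Cd3 UMI, and 1389 cells with a Lef1 UMI and at least 2 Cd3 UMIs were left out by an exclusion gene, more than the 1054 that were kept. Of these 1389 cells, 1087 carried a Siglech UMI, and Siglech stood at 123 to 243 UMIs per 1000000 UMIs in barcodes of 100 UMIs or fewer. How many of them were T cells was not tested.

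The Lef1 level of the members is set by the rule. It was 417, 361, 279 and 370 UMIs per 1000000 UMIs of the summed cells (CPM) in the fresh members of NC1, NC2, PC1 and PC2 and 442, 412, 309 and 343 CPM in the preserved members. In barcodes of 100 UMIs or fewer, taken as a measure of free RNA, Lef1 stood at 11.6 to 60.5 CPM. Of the members, 579 had 1 Lef1 UMI, 268 had 2 and 207 had 3 or more, with a maximum of 9. Cd3e, a chain of the T cell receptor complex, stood at 495 to 748 CPM in the members, against 45.9 to 258 CPM in free RNA.

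Lef1 positive cells made up 28.9%, 38.6%, 21.1% and 16.2% of the T cells in fresh NC1, NC2, PC1 and PC2, and 28.1%, 36.0%, 23.4% and 21.1% after DMSO cryopreservation. The mean was 26.2% ± 9.74 (SD, n = 4 animals) fresh and 27.2% ± 6.57 preserved, and the paired difference of 0.956 ± 3.29 percentage points was smaller than its spread (two-sided exact permutation test, p = 0.75, where 0.125 is the smallest p that 4 animals allow). Without PC2 the difference was -0.351. With at least 5 Cd3 UMIs the shares were 49.3%, 62.6%, 37.5% and 37.7% fresh and 45.7%, 52.0%, 41.6% and 33.8% preserved, and the difference was -3.51 ± 6.0, so no direction can be read. Of all cells, the members were 4.31%, 6.32%, 1.53% and 0.597% fresh and 4.47%, 7.40%, 1.41% and 0.900% preserved, with a difference of 0.357 ± 0.514 percentage points (exact permutation test, p = 0.25).

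Both CSAA animals had larger shares than both CDAA animals. As means of the 2 libraries of each animal, Lef1 positive cells were 32.9% ± 6.19 of T cells in the CSAA and 20.5% ± 2.55 in the CDAA animals (SD, n = 2 each), a difference of -12.4 percentage points. Of all cells they were 5.63% ± 1.75 and 1.11% ± 0.510, a difference of -4.52 points. The groups did not overlap in either measure, and the exact permutation test of 2 against 2 animals gave p = 0.333, the smallest p it can give. In T cells with at least 5 Cd3 UMIs the difference in the share of T cells was -14.8 points, from 52.4% to 37.6%. It was -8.06 without T cells of 5 or more Csf1r and Cd68 UMIs, -8.04 without NC2 and -6.82 with Lef1 called in 1000 UMIs per cell. The difference in the share of all cells was -7.22 points, from 9.18% to 1.96%, with the exclusion genes at up to 1 UMI, -2.22 with at least 2 Lef1 UMIs and -1.98 with Lef1 called in 1000 UMIs. A share of cells says nothing of the number of cells in the liver.

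**Figure D2:**
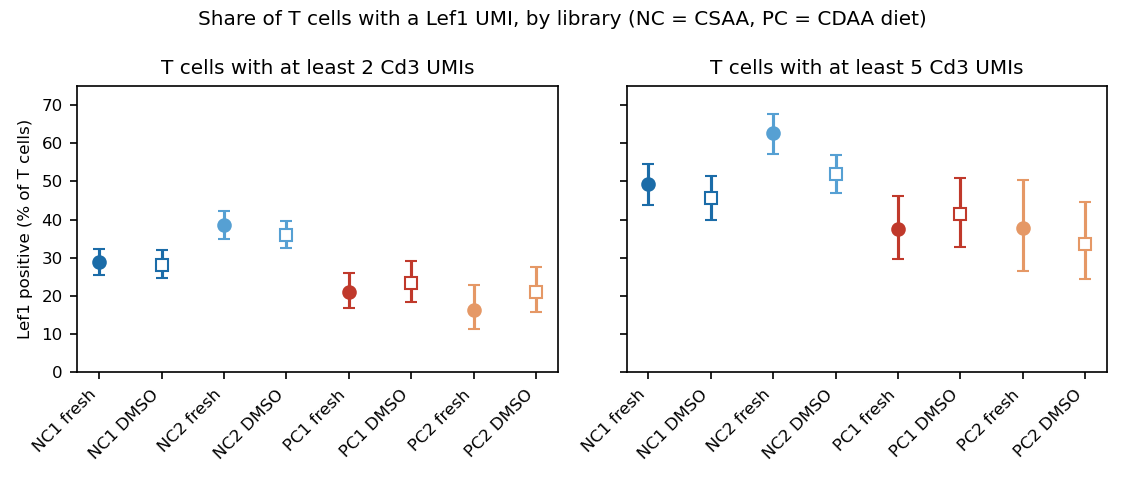
The percent of T cells with a Lef1 UMI is plotted for each library, fresh as filled circles and DMSO cryopreserved as open squares, with 95% Wilson intervals that cover counting error only, for T cells with at least 2 (left) and at least 5 Cd3 UMIs (right). NC2 was highest and the CDAA animals PC1 and PC2 were lowest in both panels.

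Lef1 itself could be tested over all T cells together, since that sum was not chosen on Lef1. Preserved and fresh T cells did not differ past the threshold (log2 fold change 0.18, SE 0.089, adjusted p = 0.325 by edgeR). By diet, Lef1 stood at 126 and 152 CPM in NC1 and NC2 and at 64.5 and 54.8 CPM in PC1 and PC2 after TMM scaling, and it fell by 1.21 on the log2 scale in the CDAA animals (SE 0.150, adjusted p = 0.0112). In the same test 76 of 9105 genes were called, or 0.835%. The call did not hold without PC1, where the change was -1.36, or without PC2, where it was -1.10. Among T cells with at least 5 Cd3 UMIs the change was -0.78 (SE 0.142, adjusted p = 0.0253), under the 2-fold minimum, and without T cells of 5 or more Csf1r and Cd68 UMIs it was -0.60 (adjusted p = 0.122).

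The members were next compared with the Lef1 negative T cells of the same library, which asks what else marks a T cell with a Lef1 UMI. UMIs were summed per library and population and tested by edgeR with the library as a block, and a gene was called when its adjusted p was under 0.05 and its difference at least 2-fold. The 7 genes of the gate were not tested. Of 5725 genes 174 were called (3.04%), 53 higher (0.926%) and 121 lower (2.11%) in the members. Fresh and preserved libraries of an animal are not independent, and a Lef1 UMI is counted more readily in cells with more RNA. The median UMIs of members and Lef1 negative T cells were 4057 and 3844 in fresh NC1 and 4871 and 4985 in fresh PC1. The part of depth in the differences was not tested.

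The genes that were higher in the members included several surface receptors and regulators of T cells. Rab3ip, an activator of a small GTPase of vesicle transport, stood at 133, 99.1, 62.6 and 79.9 CPM in fresh members of NC1, NC2, PC1 and PC2 and at 191, 88.1, 101 and 109 CPM in preserved members. Its level in Lef1 negative T cells was 6.06 to 26.6 CPM, below every member value (log2 fold change 2.58, SE 0.151, adjusted p = 4.4e-14). The other named genes that rose were Art4, an ADP-ribosyltransferase family member (2.06), Cd40lg, the ligand by which helper T cells activate B cells (1.93), Satb1, a chromatin organizer of T cell development (1.81), Fam101b (1.78), the survival kinase Pim2 (1.58), Fam189b (1.53), Tnfrsf26, a TNF receptor family member (1.49), the costimulatory receptor Cd27 (1.47) and Snn (1.44), all as log2 fold changes and all higher in 8 of 8 libraries. Cd27 reached a UMI in 63.7% of members and 28.5% of Lef1 negative T cells, Cd40lg in 24.0% and 7.47%, and Rab3ip in 35.2% and 7.67%. Rab3ip, Cd40lg, Satb1, Cd27 and Art4 were above the free RNA of their library in the members of 8 of 8 libraries.

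Much of this list changed when both populations were held to at least 5 Cd3 UMIs. Then 14 of 3976 genes were called (0.352%), 9 higher (0.226%) and 5 lower (0.126%). Of the 53 higher genes 9 were still called, and 31 of the 40 that could be tested kept an adjusted p under 0.05 in the same direction. Among the 9 were Rab3ip (1.89), Tnfrsf26 (1.37), Car2 (1.30), Art4 (1.23), Fam101b (1.16), Satb1 (1.15), Vps37b (1.14) and AABR07017846.1. Cd40lg (0.97, adjusted p = 6.9e-07) and Cd27 (0.72) stayed past the p threshold but below 2-fold. Of the 121 lower genes 51 could be tested, of which 48 were still lower, 13 kept an adjusted p under 0.05 and 1 was called. When T cells of 5 or more Csf1r and Cd68 UMIs were left out instead, 64 of 65 tested lower genes kept an adjusted p under 0.05 and 15 stayed called, with a median of -0.89 beside -1.09 for the same genes before.

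At 2 Cd3 UMIs the largest decreases among the named genes were in Lyc2, a lysozyme (-1.99), Cd180, a receptor of B and myeloid cells (-1.97), the transcription factor Cebpb (-1.83), the formyl peptide receptor Fpr3 (-1.78) and Clec4a3, a myeloid lectin (-1.62), followed by Defb14, Il36b, Cd300le, Fxyd2 and Nfil3. All 9 of 9 tested myeloid markers were lower at an adjusted p under 0.05, where 15.3% of all genes were, with a median of -0.74. At 5 Cd3 UMIs the 5 lower genes were Mdfic (-1.49), the costimulatory receptor Tnfrsf9 (-1.45), the effector cell receptor Klrg1 (-1.14), the chemokine receptor Ccr6 (-1.09) and Slfn4 (-1.09). At that minimum 5 of the 9 myeloid markers were lower at an adjusted p under 0.05, where 5.28% of all genes were, with a median of -0.33. The 9 myeloid markers, all detected and led by the lysozyme Lyz2, summed to 4368 to 8836 CPM in members, 8955 to 17560 CPM in Lef1 negative T cells and 7624 to 13516 CPM in free RNA. With at least 5 Cd3 UMIs they summed to 3165 to 5616 CPM in members and 3813 to 7359 CPM in Lef1 negative T cells, both below the free RNA of the same library in 8 of 8 libraries. Their part in the other differences was not tested.

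**Figure D3:**
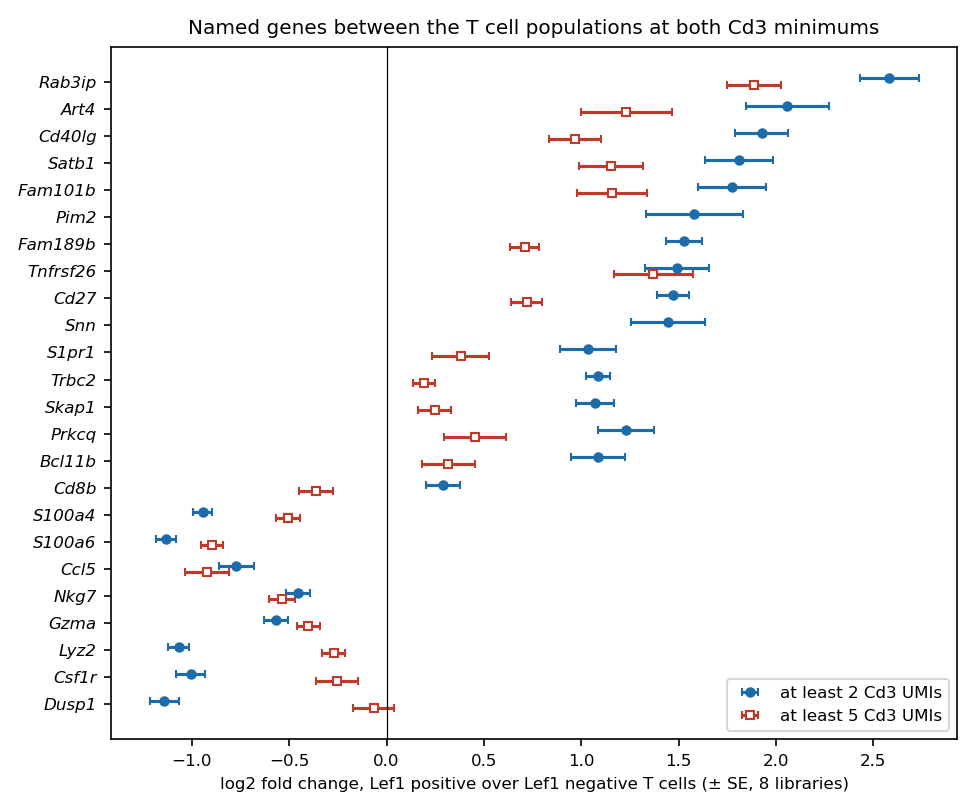
The log2 fold change of Lef1 positive over Lef1 negative T cells, with its SE over 8 libraries, is plotted for named genes among T cells with at least 2 Cd3 UMIs (filled circles) and at least 5 (open squares, where the gene could be tested). Rab3ip and Tnfrsf26 stayed above 1 at both minimums, Trbc2, Skap1 and Dusp1 moved close to 0, and Cd8b changed sign.

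Of 25 listed genes of naive and central memory T cells 11 could be tested. Of these, 4 rose (Cd27, Satb1 and S1pr1 among them), beside 0.926% of all genes, and 7 did not pass. The median log2 fold change of the 11 was 0.80 beside 0.01 over all genes. Without the 2-fold minimum 28.4% of all genes passed, 13.1% higher and 15.3% lower, and 9 of the 11 were higher. S1pr1, the receptor for exit from lymph nodes and tissue, was at 91.7, 59.1, 47.0 and 72.6 CPM in fresh and 58.8, 42.3, 34.8 and 49.0 CPM in preserved members of NC1, NC2, PC1 and PC2, and at 15.96 to 42.4 CPM in Lef1 negative T cells. The ranges overlapped, but S1pr1 was higher in the members in 8 of 8 libraries. It rose by 1.03 on the log2 scale (SE 0.145), and with at least 5 Cd3 UMIs it was at 0.38 with an adjusted p of 0.0967. At that minimum 2 of 8 tested genes of the list rose, Satb1 among them, beside 0.226% of all genes. Without the 2-fold minimum 5 were higher, beside 6.31% of all genes.

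Levels also differed with the number of Lef1 UMIs. With 0, 1, 2 and 3 or more Lef1 UMIs per T cell, S1pr1 was at 27.4, 45.8, 70.9 and 77.7 CPM, as means of the 8 libraries. It was higher with 1 Lef1 UMI than with 0, and with 3 or more than with 1, in 8 of 8 libraries, but all 4 levels were in this order in 4 of 8, and in the CDAA libraries the class of 3 or more held 5 to 12 cells with 2 to 4 S1pr1 UMIs. Ccl5, a chemokine of memory and effector T cells, was at 7809, 4860, 4102 and 3797 CPM, lower with 1 than with 0 in 8 of 8 libraries, with 3 or more than with 1 in 7 of 8, and in order throughout in 2 of 8. S100a4, a calcium-binding protein of memory T cells, was at 1705, 982, 695 and 652 CPM, with the same comparisons holding in 8, 7 and 4 of 8 libraries. These values were not tested, and the T cells with 0 Lef1 UMIs include those with 2 Cd3 UMIs.

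Few effector and cytotoxic genes passed the 2-fold minimum. Of 27 tested genes of effector memory and residency, 3 fell (S100a6, S100a11 and Zeb2), beside 2.11% of all genes, and 24 did not pass. The median of the 27 was -0.47, and without the 2-fold minimum 16 were lower, where 15.3% of all genes were. Of 20 tested cytotoxic genes 1 fell (the Fc receptor Fcgr3a), beside the same 2.11%, with a median of -0.52 and 15 lower without the 2-fold minimum. Ccl5 stood at 5110, 6915, 3991 and 4479 CPM in fresh and 1838, 4834, 3830 and 4762 CPM in preserved members, and was lower than in the Lef1 negative T cells of the same library in 8 of 8 libraries (-0.77, SE 0.090, adjusted p = 4.3e-08). In the same libraries free RNA held 6173 to 10005 CPM of Ccl5, above the members in 8 of 8. Nkg7, a cytotoxic granule protein (-0.46), and S100a4 (-0.94) were likewise lower in 8 of 8 libraries, below 2-fold, and below free RNA. With at least 5 Cd3 UMIs the values were -0.92 for Ccl5, -0.54 for Nkg7, -0.51 for S100a4 and -0.90 for S100a6, and 16 of 23 effector memory and 13 of 20 cytotoxic genes were lower without the 2-fold minimum, where 11.6% of all genes passed and 5.28% were lower.

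Of 30 tested T cell receptor and signalling genes 4 rose at 2 Cd3 UMIs, beside 0.926% of all genes: Trbc2 (a constant region of the receptor beta chain), the adaptor Skap1, the kinase Prkcq and the transcription factor Bcl11b. The other 26 did not pass, and the median was 0.55. Without the 2-fold minimum 20 of the 30 were higher and 2 lower, where 13.1% and 15.3% of all genes were. With at least 5 Cd3 UMIs 0 of 28 were called by edgeR (at an adjusted p under 0.05 with no fold minimum 5 were higher, as were 6.31% of all genes, and 3 lower) and the median was 0.06. Of 84 tested cytosolic ribosomal protein genes 0 reached 2-fold, but 80 were higher with no fold minimum, with a median of 0.43. At 5 Cd3 UMIs 73 of 83 were higher, with a median of 0.23. The Wnt partners and targets of Lef1 gave 0 calls in 13 tested genes and a median of 0.02, and most of the 44 listed genes were too low to be tested.

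Among the remaining lists, to be read beside the 2.11% of all genes that fell, 5 of 34 immediate early genes fell at 2 Cd3 UMIs (Dusp1, Nr4a1, Klf4, Nfkbiz and Atf3) and 0 of 28 at 5, where Dusp1 was at -0.07 (adjusted p = 0.793). Of 34 interferon-stimulated genes 2 fell (Ifit2 and Ifit3). Heat shock (22 tested) and cell cycle genes (23 tested) gave 0 calls by edgeR. Without the 2-fold minimum 3 heat shock genes were higher and 2 lower and 3 cell cycle genes were higher, shares near or below the 13.1% and 15.3% of all genes. The members also held fewer different genes per cell at equal depth. In 1000 UMIs per cell the median was 499 ± 15.5 genes in members and 518 ± 14.5 in Lef1 negative T cells (SD, n = 8 libraries). The difference of -18.7 ± 4.97 genes was negative in 8 of 8 libraries (two-sided exact permutation test, p = 0.0078, the smallest possible), and it was -12.9 with at least 5 Cd3 UMIs. That test treats the 2 libraries of an animal as independent. As means of each animal the difference was negative in 4 of 4 animals, where the exact permutation test cannot go below its p of 0.125.

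The CD4 and CD8 lineages could not be told by Cd4 itself, of which the members held 50 UMIs. Cd8a was counted in most cells and stood at 378 to 629 CPM in free RNA, beside 457 to 695 CPM in members. Cd40lg and Cd8b were used instead, a division that was chosen after seeing the data. Of the members 213 had Cd40lg and no Cd8b, 310 had Cd8b and no Cd40lg, 40 had both and 491 had neither. Cd8b was found in 15.8% of members with and 38.7% of members without Cd40lg. The share with Cd40lg was 25.6%, 22.6%, 30.2% and 20.0% in fresh and 27.7%, 20.9%, 21.8% and 26.3% in preserved members of NC1, NC2, PC1 and PC2.

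The members with Cd40lg alone and with Cd8b alone differed in some of the genes that did not define them. Cd8a was at 266 CPM in the first and 987 CPM in the second, and the granule protease Ctsw at 120 and 400 CPM, each lower with Cd40lg in 8 of 8 libraries. Rab3ip (169 and 94.8 CPM), S1pr1 (88.3 and 52.5 CPM) and Trbc2 (768 and 468 CPM) were higher with Cd40lg in 8 of 8 libraries. Icos, a costimulatory receptor of helper T cells, was at 67.6 and 32.2 CPM and higher in 7 of 8. Other genes were not split in this way. Cd4 was at 9.17 and 8.35 CPM, higher with Cd40lg in 4 libraries and lower in 3. The granule protease Gzma was at 687 and 768 CPM, higher in 4 libraries and lower in 4. Between 5 and 80 cells of each kind were available per library, and these differences were not tested. The 213 cells with Cd40lg alone held 872314 UMIs and the 310 with Cd8b alone 1676338, and the part of depth was not tested.

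Against the 28666 cells outside the gate, 624 of 9677 genes were called (6.45%), 239 higher (2.47%) and 385 lower (3.98%) in the members. This mostly restates that T cells were chosen, but the cells outside the gate were not free of T cell transcripts. They held 13153 of the 20513 Cd3e UMIs and 3483 of the 5367 Lef1 UMIs of all cells. How many of them were T cells was not tested. Of 35 tested T cell receptor and signalling genes 17 rose, among them Trbc2, Lck, Cd247 and Lat, and Foxp3, Cd8b and Cd40lg rose as well. Foxp3 was not particular to the members, which held 23 of its UMIs beside 74 in the Lef1 negative T cells. It was above free RNA in 4 of 8 libraries in the members and in 8 of 8 in the Lef1 negative T cells. The named genes that rose included Rab3ip (3.34), Cd40lg (3.29), the phosphodiesterase Pde4d (3.17), Art4 (3.06), Ms4a4c (3.02) and Tbc1d4 (2.72). Of naive and central memory genes 7 of 14 rose, with a median of 0.92 beside -0.03 over all genes. All 4 tested B cell markers fell, but the rule had kept cells with a Cd79a UMI out of the members and not out of the other cells. Of 9 myeloid markers 0 reached 2-fold. Without that minimum 6 were lower at an adjusted p under 0.05, as were 1413 of 9677 genes. Of 25 Wnt genes Myc and Axin2 rose and Ccnd1, Ctnnbip1 and Ctbp2 fell.

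DMSO cryopreservation was then compared with the fresh state within each animal. Of 4153 genes 25 were called in the members (0.602%), 15 higher (0.361%) and 10 lower (0.241%). Without NC1 43 genes were called and without NC2 16. The rise was carried by immediate early genes, which cells transcribe within minutes of a stimulus. Of 29 tested genes of that list 9 rose and 20 did not pass, with a median of 0.38 beside -0.01 over all genes.

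The AP-1 subunits Fos, Fosb and Jun rose most. Fos went from 68.0, 29.6, 13.0 and 7.26 CPM in the fresh members of NC1, NC2, PC1 and PC2 to 736, 1113, 643 and 887 CPM in the preserved ones (log2 fold change 4.61, SE 0.260, adjusted p = 6.2e-09). Fosb went from 9.71, 6.39, 2.61 and 0 CPM to 322, 1010, 400 and 435 CPM (6.56, SE 0.264). Jun went from 28.1, 24.0, 10.4 and 29.0 CPM to 462, 635, 236 and 566 CPM (4.45, SE 0.161). Fresh and preserved values of each gene did not overlap, and a Fos UMI was found in 22.1%, 9.58%, 7.94% and 4.00% of fresh and 88.7%, 96.1%, 89.1% and 100% of preserved members.

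Smaller increases were found in regulators that act downstream of such stimuli. The phosphatase Dusp1 rose by 2.65 on the log2 scale, the chemokine Ccl3 by 2.12, Ppp1r15a, a phosphatase subunit of the stress response, by 2.11, Junb by 1.67, the G protein regulator Rgs1 by 1.65, the RNA-binding protein Zfp36 by 1.51, Klf6 by 1.43 and Ccl4 by 1.16, each in 4 of 4 animals. Free RNA of the preserved libraries held more of these transcripts as well. Fos, Fosb and Klf6 were above the free RNA of the same library in the members of 4 of 4 preserved libraries and Jun in 3 of 4. Dusp1, Ccl3, Ppp1r15a, Rgs1 and Zfp36 were above it in 0 of 4, and Junb and Ccl4 in 1 of 4 each. The part of free RNA in these increases was not tested.

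**Figure D4:**
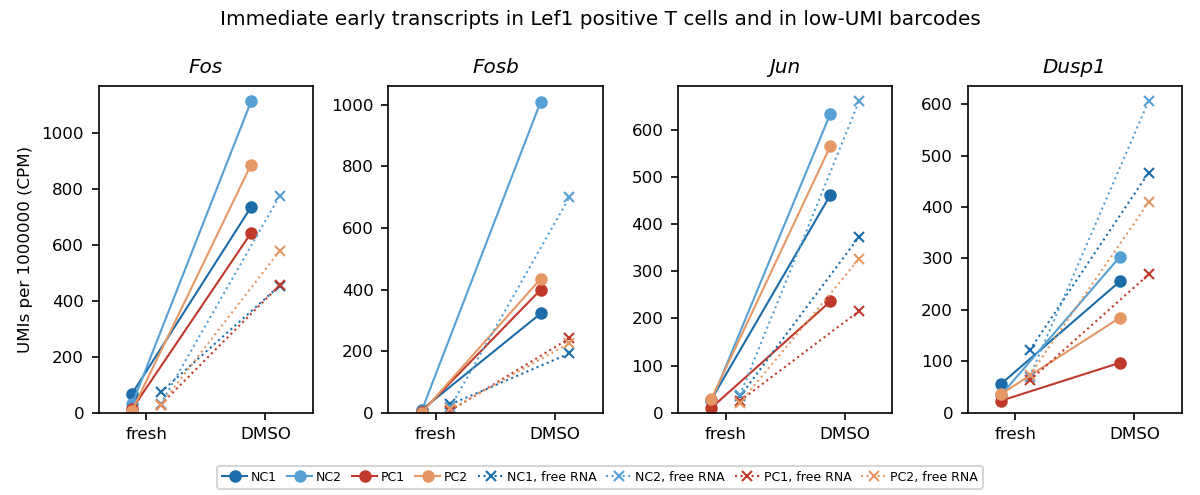
Levels in CPM are plotted for Fos, Fosb, Jun and Dusp1 in Lef1 positive T cells (circles, solid lines) and in barcodes of 100 UMIs or fewer, taken as free RNA (crosses, dotted lines), fresh and DMSO cryopreserved, with 1 line per animal. All lines rose, Fos and Fosb ended above free RNA in each animal, and Dusp1 ended below it.

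Among the genes that fell after preservation were Spp1 (-2.0), Fxyd2 (-1.89), the lipase Lpl (-1.69), Apoe (-1.48), Fam49a (-1.15) and the granulocyte protein S100a9 (-1.05), as log2 changes. Fxyd2, Apoe, Fam49a and S100a9 were lower in 4 of 4 animals. Spp1 had 1 UMI in fresh NC1 and in fresh NC2 and 0 after preservation, and Lpl 1 and 0 in NC1, so that their direction could be read only in the other animals. Spp1, Lpl and Apoe are macrophage transcripts in this tissue. In fresh PC1, 3 of 63 members held 85.8% of the Spp1, 74.1% of the Lpl and 82.9% of the Apoe UMIs. With the exclusion genes at up to 1 UMI the changes of these genes turned to 1.18, 0.83 and 0.64. The 10 decreases became 4 without PC1, 5 without NC2 and 22 without NC1, and the 8 genes called by DESeq2, the 12 with at least 2 Lef1 UMIs and the 10 without the animal as a block were all increases. With at least 5 Cd3 UMIs 16 genes were called (0.462%), 13 higher (0.376%) and 3 lower (0.0867%), all of them among the 25, with Apoe at -0.04 and Spp1 at -1.01 (adjusted p = 0.246). The summed myeloid markers were 7106 CPM in fresh and 6042 CPM in preserved members, as means of 4 libraries, and their part in these decreases was not tested.

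The other groups gave little. Of 21 heat shock genes and 23 interferon-stimulated genes 0 were called. The same held for 10 naive and central memory, 23 effector memory, 27 receptor signalling and 9 Wnt genes by edgeR. Without the 2-fold minimum 2 heat shock genes were higher, as were 32 of all 4153 genes. Of 19 cytotoxic genes Ccl3 and Ccl4 rose, beside 0.361% of all genes. The response was set beside that of the Lef1 negative T cells, where 52 of 7030 genes were called (0.74%). There Fos changed by 4.25, Fosb by 5.39, Jun by 3.78 and Dusp1 by 2.74 on the log2 scale. A test of the difference between the 2 responses called 0 of 6510 genes by edgeR (0%) and 0 by DESeq2, with 268 at an unadjusted p under 0.05. Without NC2 or without PC2 2 genes were called. A p that misses the threshold does not show that the responses were alike.

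Between the diets, 37 of 6357 genes were called in the members when both libraries of an animal were added (0.582%), 26 higher (0.409%) and 11 lower (0.173%) in the CDAA animals. The higher genes were led by transcripts of lipid-associated macrophages. Fabp4, a fatty acid binding protein, was at 1.08 and 10.4 CPM in fresh NC1 and NC2, 1135 and 334 CPM in fresh PC1 and PC2, 1.59 and 2.70 CPM in preserved NC1 and NC2, and 226 and 278 CPM in preserved PC1 and PC2. Apoe rose by 5.01 (SE 0.408) and Gpnmb by 3.72 (SE 0.248) on the log2 scale, and Trem2, Mmp12, Lpl, RT1-Bb, Cd63 and Fam20c rose as well. Spp1, osteopontin, had 1 UMI in fresh NC1 and 1 in fresh NC2 and none in their preserved libraries, beside 368, 189, 38.2 and 131 CPM in fresh PC1, fresh PC2, preserved PC1 and preserved PC2.

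Free RNA of the CDAA libraries also held these transcripts. Spp1 was at 10.1 to 13.3 CPM in the free RNA of the CSAA and at 177 to 380 CPM in that of the CDAA libraries. The members exceeded their free RNA in 1 of 4 CDAA libraries for Spp1, Fabp4, Apoe and Gpnmb, in 0 of 4 for Cd63, and, with at least 5 Cd3 UMIs, in 0 of 4 for all of them. In fresh PC1 3 of 63 members held 85.8% of the Spp1, 86.4% of the Fabp4 and 82.9% of the Apoe UMIs. The 9 myeloid markers summed to 5089 CPM in CSAA and 8058 CPM in CDAA members, as means of 4 libraries each. What free RNA and adhering or mixed cells added to this difference was not tested.

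**Figure D5:**
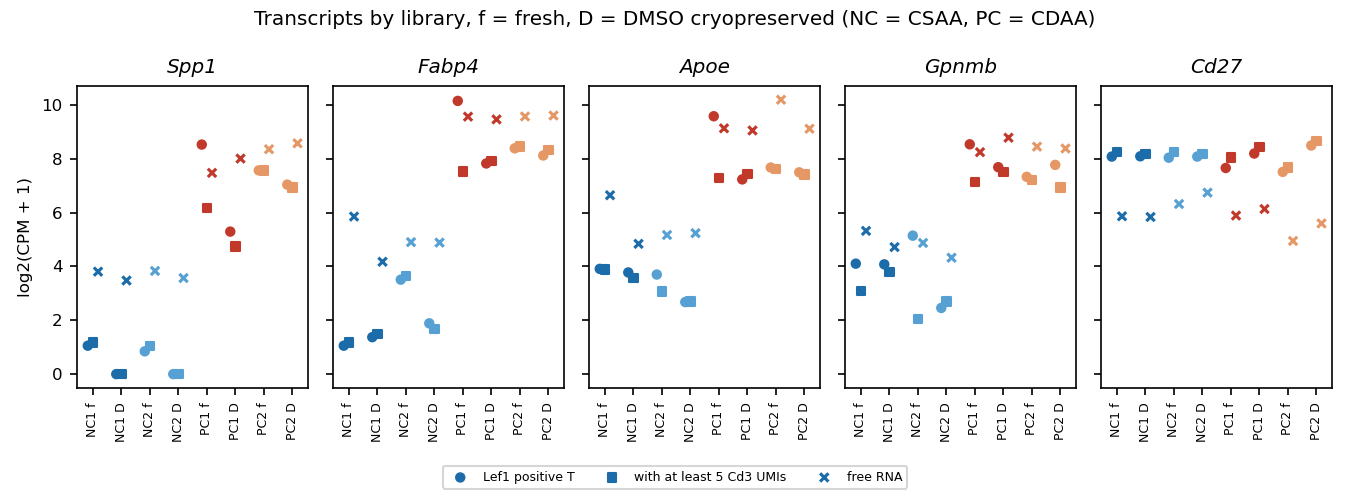
The log2 of CPM plus 1 is plotted by library for Spp1, Fabp4, Apoe and Gpnmb, and for Cd27 as a gene of the members, in Lef1 positive T cells (circles), in those with at least 5 Cd3 UMIs (squares) and in free RNA (crosses). For the first 4 genes free RNA was above the members with at least 5 Cd3 UMIs in every library, and for Cd27 it was below them in every library.

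Of the genes that fell in the CDAA animals, Pnrc1, a nuclear receptor coactivator, was at 274, 202, 115 and 79.9 CPM in fresh and 288, 252, 115 and 125 CPM in preserved members of NC1, NC2, PC1 and PC2 (-1.22, SE 0.173, adjusted p = 0.0052). Both CSAA animals were above both CDAA animals in each state. Ypel3, a growth suppressor, was at 282, 247, 141 and 87.1 CPM fresh and 254, 206, 108 and 136 CPM preserved (-1.07, SE 0.168). Pnrc1 exceeded free RNA in 8 and Ypel3 in 7 of 8 libraries, and free RNA showed the same order of the diets, with Pnrc1 at 134 to 206 CPM in CSAA and 74.0 to 106 CPM in CDAA libraries. The splicing factor Srsf2 (-1.16), Scand1 (-1.24), Anp32b (-1.17) and Rgcc (-1.21) also fell, and Srsf2 and Scand1 were above free RNA in 1 and 2 of 8 libraries. Cxcl1 and the iron exporter Slc40a1 were lower too.

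Held to at least 5 Cd3 UMIs, 17 of 5787 genes were called (0.294%), 13 higher (0.225%) and 4 lower (0.0691%). The 4 were Srsf2 (-1.43), Scand1 (-1.36), Pnrc1 (-1.18) and Ypel3 (-1.04), and 12 of the 26 higher genes stayed called, among them Gpnmb, Fabp4, Apoe and Cd63. With 2 animals per diet the counts depended on each animal. They were 66 without NC1, 99 without NC2, 60 without PC1 and 117 without PC2, where the lone animal of a diet was assumed to vary like the others. The lists were read over all members, with at least 2 Cd3 UMIs. There 1 of 11 naive and central memory genes fell (Rgcc), where 0.173% of all genes did. The median of the 11 was -0.45 beside -0.03 over all genes. Of 28 effector memory genes 1 rose (Lgals3, which macrophages also express), where 0.409% of all genes did. Cytotoxic (20 tested), receptor signalling (31), Wnt (14), immediate early (35), heat shock (23), interferon-stimulated (35) and ribosomal protein genes (87) gave 0 calls by edgeR, and none of these genes passed without the 2-fold minimum. Cd8b was at -0.62 (SE 0.180, adjusted p = 0.204) and Ccl5 at -0.25 (SE 0.186, adjusted p = 0.739).

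The preservation response itself differed between the diets in 2 of 4922 genes (0.0406%), 1 in each direction. Slpi, a secreted protease inhibitor, was at 630, 444, 1779 and 298 CPM in fresh and 696, 837, 254 and 207 CPM in preserved members of NC1, NC2, PC1 and PC2 (difference of the log2 changes -2.61, SE 0.415, adjusted p = 0.028). Fresh PC1 stood apart, with 80.8% of its Slpi UMIs in 3 cells, and in preserved NC2 3 of 254 cells held 49.7%. With at least 5 Cd3 UMIs the difference was -0.85 with an adjusted p of 0.894. Ubd, a ubiquitin-like modifier, was at 29.1, 34.4, 7.83 and 21.8 CPM in fresh and 7.94, 10.8, 132 and 16.3 CPM in preserved members (4.72, SE 0.789, adjusted p = 0.028). Preserved PC1 alone was high, where 3 cells held 94.7% of the Ubd UMIs, and 3 cells held 88.9% in fresh NC1 and 62.8% in fresh NC2. With at least 5 Cd3 UMIs the Ubd difference was 4.87 (adjusted p = 0.0021 by edgeR). Without T cells of 5 or more Csf1r and Cd68 UMIs it was 4.34 (adjusted p = 6.9e-05 by edgeR). Without PC1 0 genes were called and without NC2 28.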

How the data were processed

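UMIs per gene and barcode were counted by the authors with Cell Ranger 2.1.1 on the Rnor6.0 genome with the annotation of Ensembl, from libraries sequenced on a HiSeq 4000, and the deposited counts are neither normalized nor limited to cells. Each library holds 18338700 to 26471843 UMIs, and intervals on shares cover counting error only. The members and gene lists were chosen with earlier results of these data known. UMIs of the cells in the gate were summed per library and population. The sums were tested with edgeR 4.0.16 in R 4.3.3 (quasi-likelihood, TMM, its filter on low counts, Benjamini-Hochberg adjustment over all genes tested), with the library or the animal as a block, and for diets as 1 sum per animal. The pairing comes from the animal: deviations of the fresh and preserved members of an animal correlated at 0.19 to 0.34, each best with its own partner. Levels in CPM are UMIs per 1000000 UMIs of the summed cells without TMM, unless stated. Named genes were the 10 largest called changes in each direction that had a full symbol and went alike in every pair, and up to 6 genes per list. The fits between the T cell populations, by preservation and by diet were tested on simulated data, and the other fits were not. Alternatives used DESeq2 1.42.0, other filters, gates and depths, and each animal left out. The 4 alternatives on Cd3 UMIs, myeloid UMIs, exclusion genes and genes per cell as means of each animal were chosen after seeing the data. Doublets were not removed in the main comparisons, and removal by score was an alternative. Values of 3 genes are not reported here.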

Additional observations from a re-analysis of the deposited data

Results flagged for a closer look

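In sets of 4 or 8 libraries, 4 of 81 had a library standing apart from the others by the Dixon criterion, which chance gives in about 1 of 20 sets. Fosb was at 1010 CPM in preserved members of NC2, where the next library had 435 CPM. Pim2 was at 15.7 CPM in fresh members of PC1, below the next value of 27.2 CPM. Tnfrsf26 was at 36.9 CPM in preserved members of NC2, above 27.8 CPM in the next. Clec4a3 was at 24.3 CPM in preserved members of PC1, above 10.9 CPM in the next.

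The preservation response of the members differed between the diets by a tested difference of -2.61 for Slpi and 4.72 for Ubd on the log2 scale. Outside the members, 1389 cells with a Lef1 UMI and at least 2 Cd3 UMIs were left out for a UMI of Ncr1 (472 cells), Cd79a (334) or Siglech (1087). Barcodes of 100 UMIs or fewer held 522 Lef1 UMIs in all.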

How the results depend on the processing

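The share of T cells with Lef1, preserved minus fresh, turned to -0.826 points with at least 2 Lef1 UMIs, -3.51 with at least 5 Cd3 UMIs and -1.07 without T cells of 5 or more Csf1r and Cd68 UMIs, and lay between -0.351 and 2.13 with 1 animal left out. Unthinned genes per cell differed by -33.2 (exact permutation test, p = 0.0703), and as means of each animal by -18.7 in 1000 UMIs (exact permutation test, p = 0.125). Genes between the T cell populations numbered 174, and 1626 with no fold minimum, 409 with no filter, 36 with at least 10 counts in every sum, 343 with at least 2 Lef1 UMIs, 14 with at least 5 Cd3 UMIs, 49 without the myeloid UMIs and 101 with exclusion genes at up to 1 UMI. Genes changed by preservation numbered 25, and 57 with no fold minimum, 13 with Bonferroni adjustment, 8 by DESeq2, 45 with no filter, 5 with at least 10 counts, 15 with Lef1 called in 1000 UMIs, 12 with at least 2 Lef1 UMIs, 16 with at least 5 Cd3 UMIs, and 16 to 43 with 1 animal left out. Without the animal as a block they were 10, and without the library as a block the populations differed in 193 genes. Responses differing between the populations numbered 11 with no filter, 1 with at least 2 Lef1 UMIs and 0 to 2 with 1 animal left out.

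Genes between diets numbered 37, and 12 with Bonferroni adjustment, 116 with no filter, 20 with at least 10 counts, 8 with Lef1 called in 1000 UMIs, 10 with at least 2 Lef1 UMIs, 17 with at least 5 Cd3 UMIs, 158 with exclusion genes at up to 1 UMI, 24 in fresh and 19 in preserved libraries, and 60 to 117 with 1 animal left out. Responses differing between diets numbered 2, and 0 by DESeq2, with at least 10 counts, under 10% mitochondrial UMIs, with Lef1 called in 1000 UMIs or at least 2 Lef1 UMIs, 4 with no filter, 1 with at least 5 Cd3 UMIs, 6 with exclusion genes at up to 1 UMI and 0 to 28 with 1 animal left out. Lef1 over all T cells changed with preservation by -0.050 with at least 5 Cd3 UMIs and -0.040 without the myeloid UMIs. By diet it changed by -0.78 and -0.60 in those settings, and by -1.36 to -1.07 with 1 animal left out. With exclusion genes at up to 1 UMI the preservation changes of Spp1, Lpl and Apoe turned to 1.18, 0.83 and 0.64, and without the myeloid UMIs that of Apoe to 0.10. The diet difference of C1qb turned to 1.75 and 1.23 in these 2 settings. The causes were not tested. Of 8683 values of named genes under alternatives, 8330 kept their direction and their side of the threshold. At 25 to 63 members per CDAA library, low genes could not be tested.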
